A study of Homo sapiens with 22 samples.

Results

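The genes described here encode ligands of the platelet-derived growth factor (PDGF), vascular endothelial growth factor (VEGF) and endothelin pathways, with the enzyme that matures endothelins. They were taken by name from the RPKM tables as 10 of 20668 gene symbols: PDGFA, PDGFB, PDGFC and PDGFD, VEGFA, VEGFC and PGF, and EDN1, EDN2 and ECE1. They were chosen by their RPKM across the 5 groups of these same samples, so their values, standard errors, intervals and calls in the fit over all genes are given as a description, with no p-value and no claim of a tested result. The samples were 10 RNA libraries, in 5 groups of 2, of MDA-MB-231, an established TNBC (triple-negative breast cancer) line. The groups were vehicle, 100 nM Dex for 2 h, 100 nM Dex for 4 h, 10 μM CpdA for 2 h and 10 μM CpdA for 4 h. All cells, vehicle included, had first spent 3 days in medium without phenol red, whose serum (5%) had been stripped with charcoal to remove steroids. Dex, short for dexamethasone, activates the glucocorticoid receptor (GR), and CpdA (compound A) is a non-steroidal ligand of GR, given at another dose. The sample labels gave the vehicle samples no time, whereas the headings of the deposited columns named vehicle replicate 1 for 2 h and vehicle replicate 2 for 4 h. The line is a single cancer cell line in culture, with no vessels or stroma.

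PDGFs are dimeric growth factors that bind the receptor tyrosine kinases PDGFRA and PDGFRB, mostly on fibroblasts and on the pericytes that coat vessels. VEGFs bind FLT1, KDR and FLT4 on endothelial cells and drive the growth of blood and lymphatic vessels, and low oxygen raises VEGFA through hypoxia-inducible factors. Endothelins are short peptides that constrict vessels and promote growth through the receptors EDNRA and EDNRB. They are made as long precursors that furin-type proteases and then ECE1 cut to their active length.

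The sequence just before the start site is shown for EDN2 and EDN1, the endothelin genes with the higher levels after Dex, and for VEGFC, which had lower levels after Dex. Each line holds the 250 bases before a RefSeq start (build GRCh38.p14), written 5′ to 3′ on the gene's own strand, with the letters TATAA and ACGTG (or its reverse, CACGT) in capitals. EDN2 is at chr1:41484684-41484933 on the minus strand. EDN1 is at chr6:12290111-12290360 on the plus strand and is the third of 3 windows listed for the gene. VEGFC is at chr4:176792923-176793172 on the minus strand.
EDN2: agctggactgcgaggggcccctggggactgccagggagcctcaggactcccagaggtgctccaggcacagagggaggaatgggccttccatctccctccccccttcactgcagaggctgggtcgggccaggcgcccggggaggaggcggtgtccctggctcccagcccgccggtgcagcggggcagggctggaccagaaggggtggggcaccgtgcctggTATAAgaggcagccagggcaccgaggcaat
EDN1: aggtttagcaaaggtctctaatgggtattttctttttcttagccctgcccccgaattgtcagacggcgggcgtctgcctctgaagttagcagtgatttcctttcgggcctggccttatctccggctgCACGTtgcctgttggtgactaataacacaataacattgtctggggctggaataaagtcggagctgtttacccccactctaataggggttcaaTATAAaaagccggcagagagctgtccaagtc
VEGFC: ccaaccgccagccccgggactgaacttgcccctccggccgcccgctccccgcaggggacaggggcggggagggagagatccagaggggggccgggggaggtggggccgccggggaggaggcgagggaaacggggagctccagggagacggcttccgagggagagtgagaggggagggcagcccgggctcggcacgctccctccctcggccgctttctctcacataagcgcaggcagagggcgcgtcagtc

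Both endothelin windows held TATAA close to their 3′ end, and the EDN1 window also held the core of the hypoxia response element. The VEGFC window held neither. Of 35116 such windows of all genes, 18.9% held TATAA and 18.5% held ACGTG on either strand. RefSeq listed 16 windows for 7 of the 10 genes, TATAA occurring in 4 of them (EDN1, EDN2 and PDGFA) and ACGTG in 2 (both of EDN1). The palindromic glucocorticoid response element, spelled GNACA and TGTNC with 3 bases between, was in 0 of the 16 windows and in 0.327% of all windows. A separate fixed string searched as a glucocorticoid half-site, AGAACA on either strand, was in 1 window, of ECE1, and in 12.4% of all windows. These letters say nothing of GR binding outside the windows, and no binding data were analysed here.

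The Dex labels were checked, but those of CpdA against vehicle and of the times were not. TSC22D3, FKBP5, PER1 and PDK4, glucocorticoid-responsive genes, were high in all 4 Dex samples and in no other sample. TSC22D3, for example, ranged from 302.3 to 315.3 RPKM with Dex and from 8.22 to 12.4 RPKM without it. VIM (1267.5 to 1464.0 RPKM) and CD44 (119.7 to 182.4 RPKM) marked the mesenchymal-like line, and ESR1 and PGR stayed under 0.005 RPKM. The other luminal markers were not all low: ERBB2 ranged from 15.9 to 21.6 RPKM, KRT18 from 164.2 to 218.5 RPKM, GATA3 from 3.75 to 6.6 RPKM and CDH1 from 0.226 to 0.465 RPKM. Endothelial markers were near 0 except KDR: CDH5, VWF, TEK, TIE1 and CLDN5 were each under 0.07 RPKM and PECAM1 ranged from 0.159 to 0.324 RPKM. RPKM (reads scaled to transcript length and to sequencing depth) allows levels of different genes to be compared. Read totals are unknown, and both vehicle samples were the shallowest, the deepest (Dex 2 h replicate 2) being 1.212 times as deep as vehicle replicate 1. Being bulk RNA, these values cannot tell a change in the share of cells that express a gene from a change per cell. The study described the duplicates as biological replicates.

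By RPKM, VEGFA was the most abundant of the 10 genes in vehicle (108.7 ± 21.7 RPKM, SD, n = 2), followed by ECE1 (93.7 ± 5.66), PDGFC (49.1 ± 1.54) and VEGFC (43.0 ± 6.11). EDN1 followed at 16.5 ± 8.84 RPKM, and EDN2, PDGFA, PDGFB and PGF lay between 2.78 and 5.36 RPKM. PDGFD stayed between 0.0669 and 0.127 RPKM in all 10 samples, and its 5 groups overlapped. It was the 1 gene of the 10 below the filter of 0.5 RPKM in at least 2 samples, so 9 entered the fits. Each of those 9 passed the filter in both vehicle samples. After 2 h of Dex the order was another one, with EDN2 first at 105.6 ± 1.4 RPKM (n = 2), above ECE1 at 81.3 ± 1.08 RPKM.

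**Figure D1:**
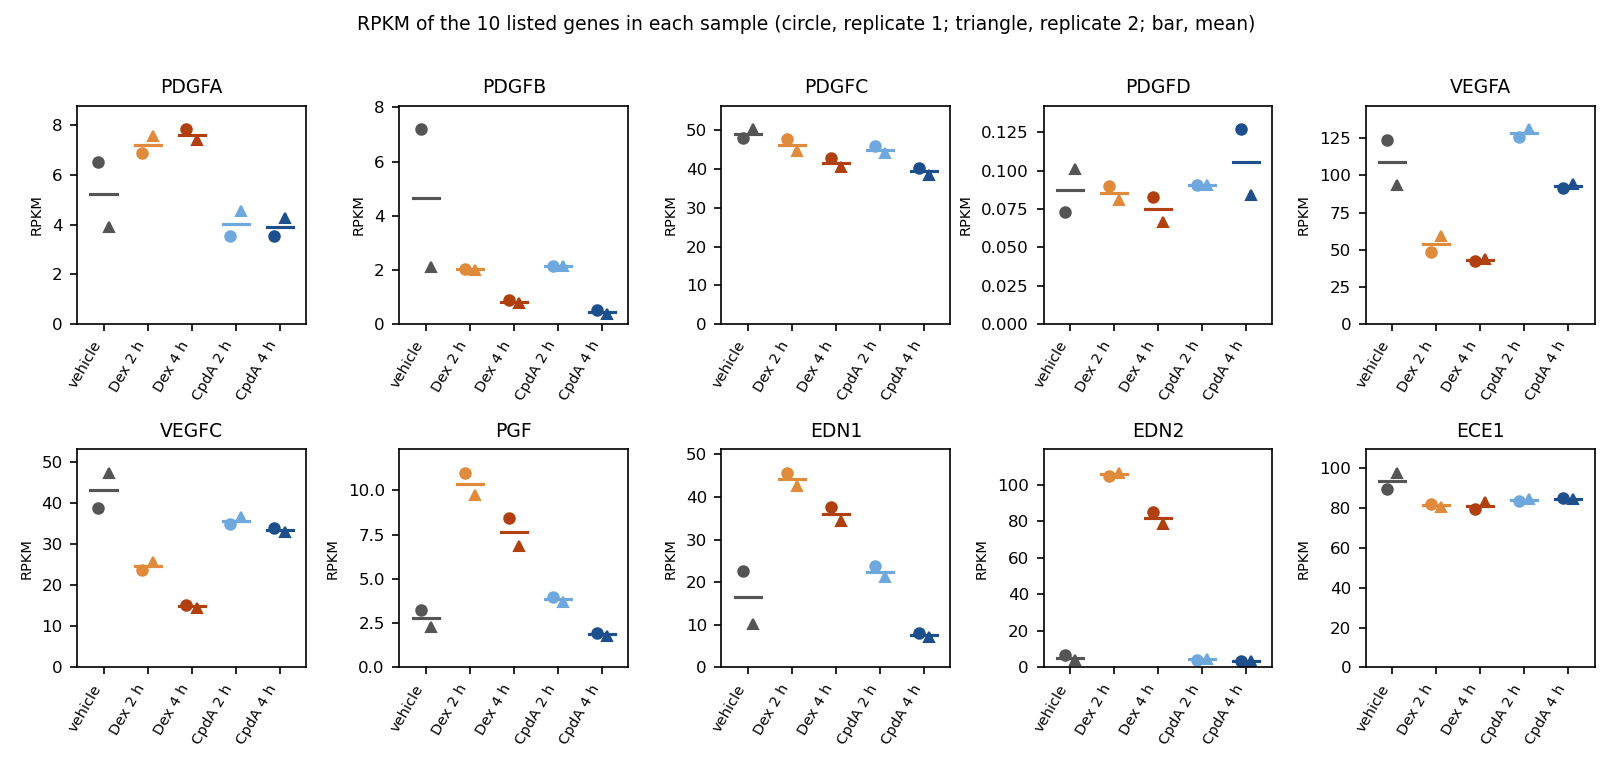
RPKM (vertical axes, linear, from 0) of the 10 genes in each sample, by group on the horizontal axes. Circles are replicate 1, triangles are replicate 2 and bars are the mean of 2. EDN2, EDN1 and PGF were highest in the 4 Dex samples and VEGFA and VEGFC lowest there, while PDGFB and EDN1 differed widely between the vehicle samples.

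A gene is said to be called where its adjusted p was under 0.05 in 1 limma model of log2(RPKM + 0.1) fitted over all 12713 genes kept. With 2 h of Dex, 6 of the 9 genes were called (3 higher, 3 lower), beside 10.3% of all genes (4.49% higher, 5.82% lower). At 4 h of Dex, 8 of 9 were called (3 higher, 5 lower), beside 27.4% of all genes (9.26% higher, 18.2% lower). With CpdA at 2 h, limma called 0 of 9, beside 6.18% of all genes (1.89% higher, 4.29% lower). Before adjustment 4 of the 9 had a limma p under 0.05. The share of all genes at that looser threshold was not computed, so 6.18% is not its baseline. At 4 h of CpdA, 5 of 9 were called, all lower, beside 20.5% of all genes (6.76% higher, 13.8% lower). The directions over all genes depended on the scaling. With samples scaled to equal medians, the genes called at 4 h of CpdA were 1386 higher and 1098 lower (860 and 1749 as deposited), at 4 h of Dex 1600 and 1604 (1177 and 2310), and at 2 h of CpdA 295 and 367 (240 and 546). Of the 9 genes, that scaling called 3 at 4 h of CpdA, all lower, and 7 at 4 h of Dex (4 higher, 3 lower). Quantile normalization gave 1203 higher and 1370 lower at 4 h of CpdA, and 1426 and 1756 at 4 h of Dex. The median difference from vehicle of the 9 genes was −0.09 and −0.21 (log2) at 2 h and 4 h of Dex, and −0.16 and −0.37 at 2 h and 4 h of CpdA. The medians of all genes were −0.02, −0.05, −0.02 and −0.04 in the same order. Since the genes were chosen with these comparisons known, nothing is read from the counts or medians.

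Of the endothelins, EDN2 (GRCh37 chromosome 1, 41944446 to 41950354, minus strand), which encodes endothelin-2, had the widest range of the 10 genes. It read 6.9 and 3.83 RPKM in vehicle, 104.6 and 106.6 RPKM at 2 h of Dex and 85.2 and 78.6 RPKM at 4 h of Dex. With CpdA it read 4.19 and 4.51 RPKM at 2 h, and 3.5 and 3.75 RPKM at 4 h. Every Dex sample was thus more than 10 times any other sample, and the Dex groups did not overlap each other. The log2 difference from vehicle was 4.33 ± 0.21 (SE; 20.2-fold) at 2 h of Dex and 3.97 ± 0.21 (15.6-fold) at 4 h. Taken against each vehicle sample alone, the fold at 2 h was 15.1 and 26.9, and at 4 h it was 11.7 and 20.9. The CpdA samples at 2 h lay between the vehicle samples, and those at 4 h lay just under both, at a log2 difference of −0.49 ± 0.21 that was not called.

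EDN1 (chromosome 6, 12290594 to 12297427, plus strand) encodes endothelin-1, the best known member of the family. Its levels were 22.7 and 10.2 RPKM in vehicle, 45.7 and 42.6 RPKM at 2 h of Dex, and 37.7 and 34.4 RPKM at 4 h of Dex. CpdA gave 23.8 and 21.2 RPKM at 2 h, and 8.05 and 7.23 RPKM at 4 h. The 4 Dex samples lay above every other sample, the 4 h CpdA samples lay below every other sample, and the 2 h CpdA samples were near the higher vehicle sample. The log2 difference from vehicle was 1.53 ± 0.28 at 2 h of Dex (2.88-fold) and 1.23 ± 0.28 at 4 h (2.35-fold), both called. It was 0.56 ± 0.28 at 2 h of CpdA, not called, and −0.99 ± 0.28 (1.98-fold lower) at 4 h of CpdA, called. The CpdA value at 4 h rests on the vehicle sample used: −1.56 against replicate 1 and −0.42 against replicate 2. The Dex values were also larger against replicate 2 (2.10 at 2 h, 1.81 at 4 h) than against replicate 1 (0.95 and 0.66). The call at 2 h of Dex was lost without Dex 2 h replicate 1, and that at 4 h of CpdA was lost in 7 of 17 alternative fits (no filter, or without any 1 sample of Dex 2 h or of CpdA).

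ECE1 (chromosome 1, 21543740 to 21672065, minus strand), the endothelin-converting enzyme, had a narrow range. It lay between 79.2 and 97.7 RPKM over the 10 samples, and both vehicle samples (89.7 and 97.7 RPKM) lay above the 8 treated ones. The Dex differences, −0.20 ± 0.05 at 2 h and −0.21 ± 0.05 at 4 h, were called. The first call was lost without vehicle replicate 2 or any 1 sample of Dex 2 h or CpdA, and the second without vehicle replicate 2 or with equal sample medians. The CpdA differences, −0.16 ± 0.05 at 2 h and −0.15 ± 0.05 at 4 h, were not called in the main fit. They gained a call in 3 and 4 of 17 alternative fits, among them those without vehicle replicate 1 or either Dex 4 h sample. Dex differed from CpdA by −0.05 (95% interval −0.15 to 0.06) at 2 h and −0.06 (−0.17 to 0.04) at 4 h.

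Among the VEGF ligands, VEGFA (chromosome 6, 43737921 to 43754224, plus strand), the main driver of vessel growth, was lower with Dex. It read 124.0 and 93.3 RPKM in vehicle, 48.8 and 58.9 RPKM at 2 h of Dex and 42.2 and 43.7 RPKM at 4 h of Dex. CpdA gave 125.7 and 130.9 RPKM at 2 h, and 91.6 and 94.3 RPKM at 4 h. No Dex sample reached 60 RPKM and no other sample fell under 90 RPKM. The log2 difference was −1.0 ± 0.12 at 2 h of Dex (2.00-fold lower) and −1.32 ± 0.12 at 4 h (2.50-fold lower), both called. Against each vehicle sample alone, the Dex values were −1.21 and −0.80 at 2 h, and −1.53 and −1.12 at 4 h. With CpdA the difference was 0.25 ± 0.12 at 2 h and −0.21 ± 0.12 at 4 h, neither called. The vehicle sample named for the same time read close to CpdA: 0.05 for the 2 h samples against replicate 1, and −0.005 for the 4 h samples against replicate 2.

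VEGFC (chromosome 4, 177604689 to 177714076, minus strand), the ligand of FLT4 that promotes lymphatic vessels, was also lower with Dex, and more so at 4 h. Vehicle gave 38.7 and 47.4 RPKM, 2 h of Dex gave 23.6 and 25.6 RPKM, and 4 h of Dex gave 15.2 and 14.5 RPKM. CpdA gave 34.8 and 36.5 RPKM at 2 h, and 34.0 and 33.0 RPKM at 4 h. The 5 groups did not overlap, and Dex at 4 h was the lowest of them. The log2 difference was −0.80 ± 0.09 at 2 h of Dex (1.74-fold lower) and −1.52 ± 0.09 at 4 h (2.88-fold lower). With CpdA it was −0.27 ± 0.09 at 2 h, not called, and −0.35 ± 0.09 at 4 h, called in the main fit and lost in 5 of 17 alternative fits (no filter, equal sample medians, or without vehicle replicate 2 or either CpdA 4 h sample). In VEGFC, unlike VEGFA, vehicle replicate 2 was the higher of the pair, so the CpdA difference at 4 h was −0.21 against replicate 1 and −0.50 against replicate 2.

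PGF (chromosome 14, 75408537 to 75422329, minus strand), placental growth factor, is a VEGF relative that binds FLT1 and not KDR. It was higher with Dex, opposite to VEGFA and VEGFC. Its levels were 3.26 and 2.3 RPKM in vehicle, 11.0 and 9.75 RPKM at 2 h of Dex, and 8.42 and 6.84 RPKM at 4 h of Dex. CpdA gave 4.0 and 3.68 RPKM at 2 h, and 1.94 and 1.8 RPKM at 4 h. The groups did not overlap: the CpdA samples lay above both vehicle samples at 2 h and below both at 4 h. The log2 difference was 1.88 ± 0.16 at 2 h of Dex (3.69-fold) and 1.44 ± 0.16 at 4 h (2.71-fold), both called. CpdA differed by 0.47 ± 0.16 at 2 h, not called, and by −0.53 ± 0.16 at 4 h, a call that was lost in 11 of 17 alternative fits, among them those without vehicle replicate 1 or any 1 sample of Dex 2 h or CpdA.

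PDGFB (chromosome 22, 39619364 to 39640987, minus strand), the ligand that recruits pericytes, differed most between the vehicle samples. They read 7.19 and 2.11 RPKM. Dex gave 2.05 and 2.01 RPKM at 2 h, and 0.887 and 0.773 RPKM at 4 h. CpdA gave 2.14 and 2.13 RPKM at 2 h, and 0.526 and 0.377 RPKM at 4 h. The 2 h samples of both compounds lay at the level of vehicle replicate 2, and the 4 h samples lay under it. The standard error is pooled over the 5 groups. Since the treated duplicates were much closer than the vehicle samples, it understates the uncertainty of differences from vehicle. The log2 difference was −2.11 ± 0.43 at 4 h of Dex (4.32-fold lower) and −2.88 ± 0.43 at 4 h of CpdA (7.35-fold lower), both called. At 2 h it was −0.91 ± 0.43 with Dex and −0.85 ± 0.43 with CpdA, and neither was called. The 2 h values rest on 1 vehicle sample: they were −1.78 (Dex) and −1.71 (CpdA) against replicate 1, but −0.05 and 0.02 against replicate 2. At 4 h both signs held, with −1.25 (Dex) and −2.02 (CpdA) against replicate 2 alone and −2.97 and −3.74 against replicate 1 alone.

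PDGFA (chromosome 7, 536895 to 559933, minus strand), which pairs with itself or with PDGFB, read 6.51 and 3.9 RPKM in vehicle. Dex gave 6.85 and 7.56 RPKM at 2 h, and 7.82 and 7.4 RPKM at 4 h. CpdA gave 3.54 and 4.53 RPKM at 2 h, and 3.52 and 4.26 RPKM at 4 h. The 4 Dex samples lay above both vehicle samples, and the CpdA samples overlapped vehicle replicate 2. The log2 differences from vehicle, 0.51 ± 0.21 and 0.59 ± 0.21 for Dex and −0.32 ± 0.21 and −0.37 ± 0.21 for CpdA, were not called. Both Dex values were called without vehicle replicate 1, that at 4 h also with quantile normalization and with equal sample medians, and the 4 h CpdA value was called without vehicle replicate 2. Against each vehicle sample alone (replicate 1, then 2), Dex gave 0.14 and 0.87 at 2 h, and 0.22 and 0.95 at 4 h. CpdA gave −0.69 and 0.04 at 2 h, and −0.73 and −0.008 at 4 h. Between the compounds PDGFA was called, as described further on.

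PDGFC (chromosome 4, 157681606 to 157892951, minus strand), which is secreted as a latent dimer that proteases such as PLAT activate, was the most abundant PDGF. It ranged from 38.5 to 50.2 RPKM, with 48.0 and 50.2 RPKM in vehicle and 40.3 and 38.5 RPKM at 4 h of CpdA. The 4 h samples of both compounds lay under all other samples. The log2 difference was −0.24 ± 0.05 at 4 h of Dex and −0.32 ± 0.05 at 4 h of CpdA, both called, against −0.09 ± 0.05 and −0.12 ± 0.05 at 2 h. The call at 4 h of Dex was lost without vehicle replicate 2 and with samples scaled to equal medians. PDGFD (chromosome 11, 103777917 to 104035107, minus strand), the other latent PDGF, was near 0 as given above.

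**Figure D2:**
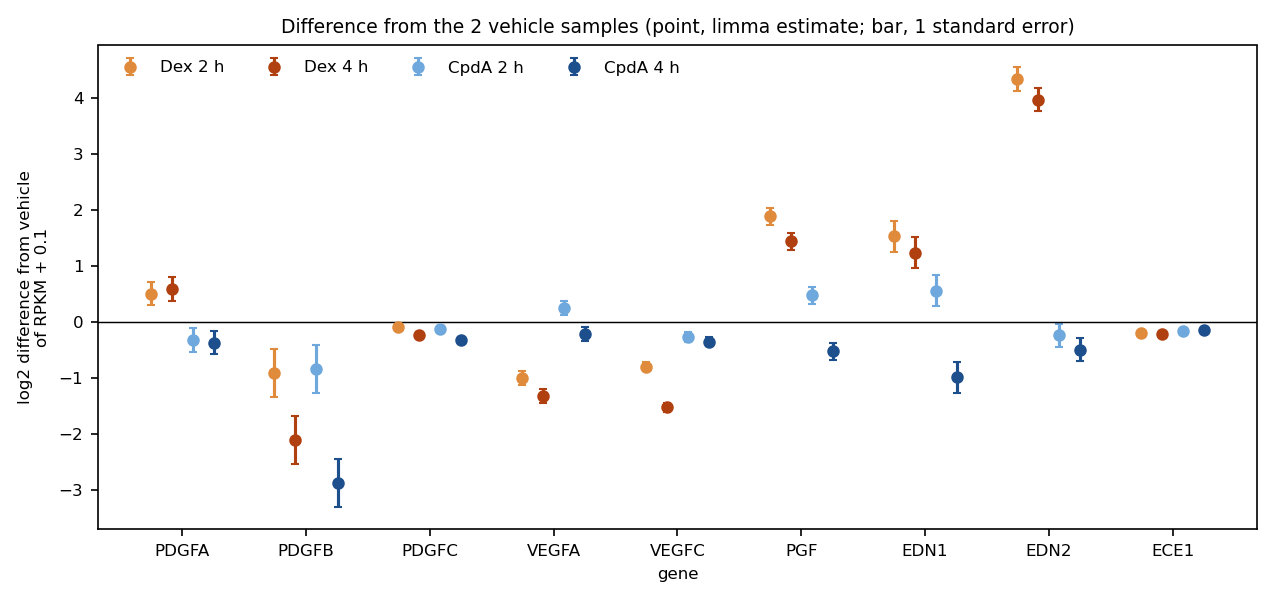
Difference of each treated group from the 2 vehicle samples, as log2(RPKM + 0.1) (vertical axis), for the 9 genes kept (horizontal axis). Points are estimates from limma and bars 1 standard error, and the line marks no difference. EDN2 reached 4.33 at 2 h of Dex, and PDGFB had the widest bars (0.43).

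Read separately, the vehicle samples differed in most of these genes. PDGFB was 3.41 times higher in replicate 1 than in replicate 2, which placed it at rank 54 of 12713 genes by the size of that difference. EDN1 was 2.23 times higher (rank 101), EDN2 1.80 times (rank 170) and PDGFA 1.67 times (rank 225). PGF and VEGFA were 1.42 and 1.33 times higher (ranks 462 and 651), whereas VEGFC was 1.22 times higher in replicate 2 (rank 1256). ECE1 and PDGFC differed little, at ranks 4424 and 7520. Over all 12713 genes the SD of the difference between duplicates was 0.26 (log2) in vehicle, 0.23 and 0.27 in the Dex groups at 2 h and 4 h, and 0.19 and 0.20 in the CpdA groups.

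For 6 of the 9 genes (PDGFB, EDN1, EDN2, PGF, VEGFA and PDGFA) replicate 2, headed 4 h, was the lower vehicle sample. Between 2 h and 4 h of CpdA the log2 differences were −2.03 for PDGFB, −1.55 for EDN1, −1.0 for PGF and −0.46 for VEGFA (SE 0.43, 0.28, 0.16 and 0.12). In each of these genes the vehicle samples differed in the same direction, by −1.72, −1.15, −0.49 and −0.41. For EDN2 the vehicle difference was −0.83, and 4 h minus 2 h was −0.37 ± 0.21 (Dex) and −0.26 ± 0.21 (CpdA), neither called. PDGFA departed from this, with a vehicle difference of −0.73 and 4 h minus 2 h differences of 0.08 ± 0.21 (Dex) and −0.05 ± 0.21 (CpdA). VEGFC departed too, since it differed by −0.73 ± 0.09 between the times of Dex but by −0.09 ± 0.09 between those of CpdA. Of the 9 genes, 1 was called between the times of Dex (VEGFC, lower), beside 13.6% of all genes (4.55% higher, 9.02% lower), and 5 between those of CpdA (PDGFB, PDGFC, VEGFA, PGF and EDN1, all lower), beside 12.4% (5.21% higher, 7.2% lower). With 1 vehicle sample per heading, a time in culture and a difference between libraries cannot be told apart.

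**Figure D3:**
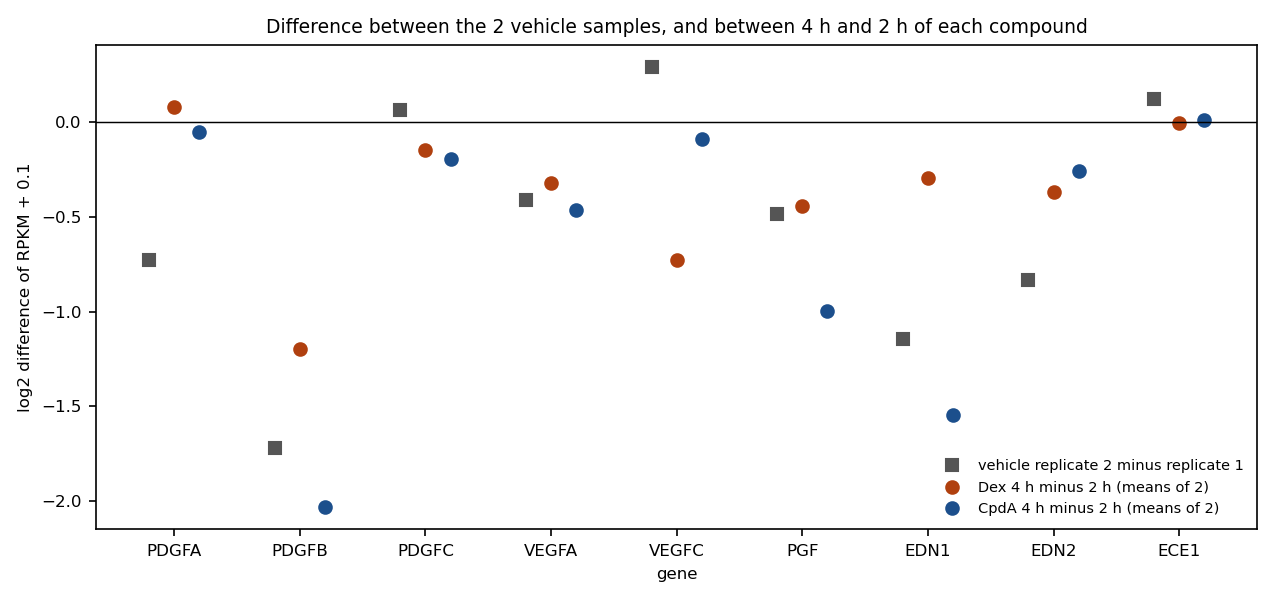
Log2 differences of RPKM + 0.1 (vertical axis) for the 9 genes kept (horizontal axis). Squares are vehicle replicate 2 minus replicate 1, and circles are 4 h minus 2 h of Dex or CpdA (means of 2). For PDGFB, EDN1, EDN2, PGF and VEGFA the squares and both circles lie below 0, and for VEGFC, PDGFC and ECE1 the square lies above it.

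Taking the vehicle sample headed for the same time as the only reference gave single-sample values with no replicate. EDN1 with CpdA then differed by −0.02 at 2 h and −0.42 at 4 h. PGF with CpdA differed by 0.23 and −0.28, and EDN2 with CpdA by −0.65 and −0.08. The Dex values kept their direction: 3.92 and 4.38 for EDN2, 0.95 and 1.81 for EDN1, 1.64 and 1.68 for PGF, −1.21 and −1.12 for VEGFA, and −0.65 and −1.67 for VEGFC. PDGFB was lower in all 4 treated groups by this reading, at −1.78 and −1.25 for Dex and −1.71 and −2.02 for CpdA.

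The difference between the compounds at 2 h and at 4 h uses no vehicle value, but its standard error comes from the fit over all 5 groups, the spread of the vehicle samples included. The doses differed (100 nM against 10 μM), so no comparison at a matched dose was possible. At 2 h, 5 of 9 genes were called (3 higher with Dex, 2 lower), beside 13.7% of all genes (7.53% higher, 6.18% lower). At 4 h, 6 of 9 were called (4 higher, 2 lower), beside 33.4% of all genes (15.4% higher, 18.0% lower). The medians of the 9 differences were 0.03 and 0.77 (log2), beside −0.01 and −0.02 over all genes. EDN2 was 23.8-fold higher with Dex at 2 h (log2 4.57 ± 0.21) and 22.0-fold higher at 4 h (4.46 ± 0.21). PGF was 2.66-fold higher at 2 h (1.41 ± 0.16) and 3.90-fold higher at 4 h (1.96 ± 0.16). EDN1 was higher by 0.97 ± 0.28 at 2 h, which was not called, and by 2.22 ± 0.28 at 4 h (4.67-fold), which was. The 2 h value was called in 5 of 17 alternative fits: without either vehicle sample, with the replicate block, with a pseudocount of 1 and with a mean RPKM of at least 1.

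VEGFA was lower with Dex than with CpdA by similar amounts at both times, −1.26 ± 0.12 and −1.11 ± 0.12. VEGFC differed by −0.53 ± 0.09 at 2 h and −1.17 ± 0.09 at 4 h. PDGFA was higher with Dex, by 0.83 ± 0.21 at 2 h (1.78-fold) and 0.96 ± 0.21 at 4 h (1.94-fold), the groups not overlapping at either time. The call at 2 h was lost in 5 of 17 alternative fits (no filter, or without any 1 of its 4 samples), and that at 4 h without CpdA 4 h replicate 1. PDGFC differed by 0.03 (95% interval −0.08 to 0.15) and 0.08 (−0.04 to 0.20). PDGFB differed by −0.07 (−1.04 to 0.90) and 0.77 (−0.20 to 1.73), intervals wide enough to hold a 2-fold difference at 2 h. The pooled standard error of PDGFB takes in the spread of its vehicle samples, while its treated duplicates were close, and its 4 h difference was called without either vehicle sample.

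Besides the 10 genes, 52 others of the same pathways had values and 40 passed the filter: other ligands, receptors, proteases, hypoxia-inducible factors with their regulators and targets, and other angiogenic factors. With Dex, 9 of 40 were called at 2 h (7 higher, 2 lower) and 19 at 4 h (8 higher, 11 lower), beside the 10.3% and 27.4% of all genes above. Without EDNRA, which passed the filter only through the Dex samples, these were 8 of 39 (6 higher, 2 lower) and 18 of 39 (7 higher, 11 lower). With CpdA, 4 were called at 2 h (3 higher, 1 lower) and 14 at 4 h (3 higher, 11 lower), beside 6.18% and 20.5%. The median differences of the 40 genes lay between −0.06 and 0.11 (log2) in the 4 comparisons. Named below are the 12 genes called with a fold over 1.5 in at least 1 comparison. Adjusted p-values are from limma with Benjamini-Hochberg adjustment over the 12713 genes. Because the lists were drawn up with earlier results known, and the 12 genes by these calls, these p-values only describe the fit.

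Of the receptors, KDR, the main signalling receptor for VEGFA, rose with Dex. It read 0.751 and 0.814 RPKM in vehicle, 4.29 and 4.8 RPKM at 2 h of Dex and 10.6 and 13.6 RPKM at 4 h of Dex. The log2 differences were 2.40 ± 0.13 (adjusted p = 2.7e-06) and 3.78 ± 0.13 (adjusted p = 8e-08), so that the receptor rose where its ligand fell. KDR fell at 4 h of CpdA, to 0.454 and 0.493 RPKM (log2 −0.62 ± 0.13, adjusted p = 0.0091), a call lost with a pseudocount of 1 and without CpdA 4 h replicate 1. KDR is also an endothelial marker. It was the 1 of 7 such markers to reach 0.5 RPKM, and their summed RPKM was 1.16 to 1.19 in vehicle, 4.64 to 5.18 and 11.1 to 13.9 in the Dex groups, and 0.681 to 0.981 in the CpdA groups.

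EDNRA, the endothelin receptor that mediates constriction, read 0.094 and 0.158 RPKM in vehicle, and between 0.505 and 0.712 RPKM in the 4 Dex samples. The log2 difference was 1.45 ± 0.25 at 2 h and 1.72 ± 0.25 at 4 h, and with a pseudocount of 1 it was 0.43 and 0.54. No p is given, since a gene that passes the filter only through the Dex samples had to differ. PDGFRL, a PDGF receptor-like protein without a kinase, read 0.748 and 0.808 RPKM in vehicle. It rose by 0.61 ± 0.14 at 2 h of Dex (adjusted p = 0.026) and 0.83 ± 0.14 at 4 h (adjusted p = 0.0023), the first call being lost with no filter and without any 1 vehicle or Dex 2 h sample. Of the 6 receptors kept other than EDNRA, 5 were called at 4 h of Dex (3 higher, 2 lower), beside 27.4% of all genes (9.26% higher, 18.2% lower). They were KDR, PDGFRL and EDNRB (higher) and NRP1 and PDGFRB (lower), of which EDNRB, NRP1 and PDGFRB were named after their values were seen. At 4 h of CpdA, 3 of the 6 were called (KDR, NRP1 and PDGFRB, all lower), beside 20.5% of all genes (13.8% lower). NRP1 differed from vehicle by −0.33 (Dex) and −0.19 (CpdA) at 4 h, and PDGFRB by −0.35 and −0.42. Neither was called between Dex and CpdA at 4 h. FLT1, FLT4 and PDGFRA did not exceed 0.02 RPKM in any sample.

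The proteases PLAT and PLAU, plasminogen activators that also process latent PDGFs, moved apart. PLAT read 163.8 and 166.7 RPKM in vehicle, and 270.1 to 281.9 RPKM with Dex. It rose by 0.72 ± 0.04 at 2 h (adjusted p = 1.5e-06) and 0.77 ± 0.04 at 4 h (adjusted p = 4.6e-07), and fell by 0.26 ± 0.04 at 4 h of CpdA (adjusted p = 0.0012). PLAU read 280.9 and 240.6 RPKM in vehicle, and 151.6 and 137.5 RPKM at 4 h of Dex. It fell by 0.40 ± 0.09 at 2 h of Dex (adjusted p = 0.019), 0.85 ± 0.09 at 4 h (adjusted p = 0.00012) and 0.38 ± 0.09 at 4 h of CpdA (adjusted p = 0.017). The PLAU calls at 2 h of Dex and 4 h of CpdA were lost with no filter and without vehicle replicate 1, the first also without either Dex 2 h sample and the second without CpdA 4 h replicate 2.

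**Figure D4:**
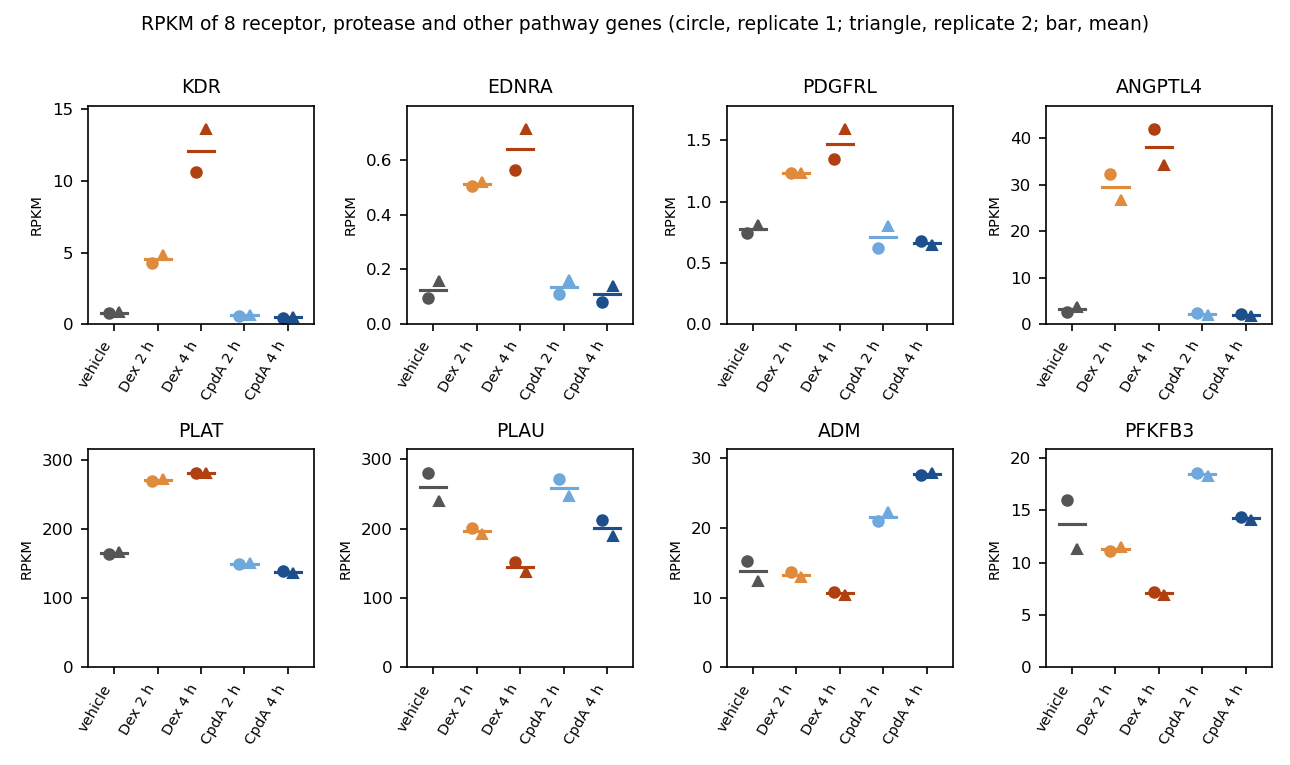
RPKM (vertical axes, linear, from 0) of 8 receptor, protease and other pathway genes in each sample, by group on the horizontal axes. Circles are replicate 1, triangles are replicate 2 and bars are the mean of 2. KDR, EDNRA, PDGFRL, ANGPTL4 and PLAT were highest in the Dex samples, and ADM was highest at 4 h of CpdA.

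ANGPTL4, a secreted lipase inhibitor with effects on vessels, rose the most of the other angiogenic factors. It read 2.7 and 3.65 RPKM in vehicle, 32.2 and 26.8 RPKM at 2 h of Dex and 41.9 and 34.3 RPKM at 4 h of Dex (log2 3.18 ± 0.18, adjusted p = 3.6e-06; and 3.55 ± 0.18, adjusted p = 8.1e-07). At 4 h of CpdA it fell to 2.14 and 1.66 RPKM (log2 −0.71 ± 0.18, adjusted p = 0.022), a call lost with no filter and without vehicle replicate 2 or CpdA 4 h replicate 2. FGF1, a fibroblast growth factor, fell at 4 h of Dex from 0.66 and 0.731 RPKM to 0.387 and 0.349 RPKM (log2 −0.77 ± 0.15, adjusted p = 0.0043). VEGFB, another ligand of FLT1, ranged from 54.1 to 65.7 RPKM and was not called in any of the 4 comparisons. VEGFD, listed under its older symbol FIGF, was below 0.05 RPKM in every sample.

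The targets of hypoxia-inducible factors, the class to which VEGFA belongs, numbered 15 after the filter. With Dex, 2 were called at 2 h (1 higher, 1 lower), beside 10.3% of all genes, and 4 at 4 h (all lower), beside 27.4% (18.2% lower). With CpdA, 3 were called at 2 h (all higher), beside 6.18% (1.89% higher), and 1 at 4 h (higher), beside 20.5% (6.76% higher). PFKFB3, a regulator of glycolysis, read 16.0 and 11.3 RPKM in vehicle and fell to 7.18 and 6.96 RPKM at 4 h of Dex (log2 −0.92 ± 0.12, adjusted p = 0.00055). PFKFB4, a relative, fell by 0.75 ± 0.22 (adjusted p = 0.03), with 10.2 and 5.43 RPKM in the vehicle samples, a call lost without either Dex 4 h sample, with no filter and with quantile normalization. PFKFB4 was lower at 4 h than at 2 h of both compounds: 9.86 and 9.78 RPKM, then 4.41 and 4.34 RPKM (Dex), and 10.7 and 10.7 RPKM, then 5.54 and 5.18 RPKM (CpdA). Dex differed from CpdA at 4 h by −0.29 ± 0.22, not called. ADM, the vasodilator adrenomedullin, moved in opposite directions with the compounds. It read 15.3 and 12.4 RPKM in vehicle, fell to 10.8 and 10.4 RPKM at 4 h of Dex (log2 −0.37 ± 0.08, adjusted p = 0.0099), and rose to 21.0 and 22.2 RPKM at 2 h of CpdA (0.65 ± 0.08, adjusted p = 0.0025) and to 27.6 and 27.9 RPKM at 4 h of CpdA (1.01 ± 0.08, adjusted p = 9.2e-05). Between Dex and CpdA at 4 h, ADM differed by −1.38 ± 0.08 (adjusted p = 2.6e-06).

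ANKRD37, another hypoxia target, rose at 2 h of CpdA from 3.75 and 3.71 RPKM to 6.48 and 6.25 RPKM (log2 0.76 ± 0.11, adjusted p = 0.0048), a call lost without CpdA 2 h replicate 1. Besides ADM and ANKRD37, the 2 other pathway genes called at 2 h of CpdA, KDM3A (higher) and HIF1AN (lower), were named after their values were seen. EGLN3, a prolyl hydroxylase that marks hypoxia-inducible factors for breakdown, fell by 0.59 ± 0.19 at 4 h of Dex (adjusted p = 0.045). That call was lost in 11 of 17 alternative fits, among them those without vehicle replicate 1, Dex 4 h replicate 2 or any 1 sample of Dex 2 h or CpdA, and the vehicle samples read 5.87 and 3.68 RPKM. EGLN3 too was lower at 4 h than at 2 h of both compounds: 6.93 and 6.22 RPKM, then 3.42 and 2.75 RPKM (Dex), and 6.56 and 5.85 RPKM, then 4.01 and 3.97 RPKM (CpdA). Dex differed from CpdA at 4 h by −0.37 ± 0.19, not called. Of the 15 targets, 8 were called in none of the 4 comparisons with vehicle, among them the glycolytic enzymes PGK1, LDHA and ALDOA and the mitophagy gene BNIP3. The share of all genes called in none of the 4 was not computed, so nothing is read from this count.

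Genes with the pattern most like that of 4 members were sought among all 12713 by the Euclidean distance between log2 values centred on each gene's mean, over the 10 samples. The gene nearest to EDN1 was PGF, another of the 10 (distance 0.81), followed by RAB20 (0.89) and SDPR (0.90), where a flat gene would lie at 2.97. The nearest to EDN2 were FGD4 (1.03), CSF3 (1.21) and SMIM3 (1.23), against 6.86 for a flat gene. FGD4 averaged 0.312 RPKM in vehicle and 0.245 and 0.218 RPKM in the CpdA groups, and CSF3 averaged 0.203, 0.0764 and 0.0762 RPKM. These 2 genes passed the filter only through the Dex samples, so they had to be higher with Dex. SMIM3, for example, averaged 5.66 RPKM in vehicle, 73.6 and 91.6 RPKM in the Dex groups and 4.42 and 4.66 RPKM in the CpdA groups. VEGFA was closest to DLC1 (0.31), PDP1 (0.31) and LIF (0.33), against 1.94 for a flat gene. LIF averaged 36.0 RPKM in vehicle, 18.5 and 12.7 RPKM in the Dex groups, and 43.4 and 33.3 RPKM in the CpdA groups. PDGFB had no neighbour as close, with LFNG at 1.82, SERTAD4 at 1.86 and FAM43A at 1.94, against 3.46 for a flat gene.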

How the data were processed

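Total RNA of MDA-MB-231 cells was sequenced as single-end reads. The authors aligned them with TopHat2 2.0.13 and estimated abundances with Partek 6.6 at default settings, and the deposited values are RPKM for 20668 gene symbols in each of 10 samples, hg19 being the build named in the submitters' processing notes. How transcripts were combined per symbol is not given in the sources used here, nor is which samples shared a lane. Overlapping genes on the 2 strands may share reads.

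RPKM values were not scaled further. Genes with at least 0.5 RPKM in at least 2 samples (12713) were fitted as log2(RPKM + 0.1), which understates fold changes of low genes, in 1 limma 3.58.1 model over the 5 groups (R 4.3.3, eBayes with an abundance trend, Benjamini-Hochberg adjustment). Fold changes are on that scale. Both vehicle samples were the reference for every treatment, and each was also used alone. Standard errors pool the spread of the 5 groups. Where the vehicle samples differed more than the treated duplicates, as in PDGFB, EDN1, EDN2 and PDGFA, they understate the uncertainty of differences from vehicle. That favours calls in those comparisons. The p-values measure the spread between these duplicates, with depth known only in relative terms, so no interval from read counts is given.

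The genes described and the pathway lists were chosen with earlier results of these data known. Named pathway genes were those called with a fold over 1.5 in at least 1 comparison with vehicle. Of 53 listed, 52 had values, and EDN3 was not analysed here. On data simulated for Dex at 4 h (12713 genes), 199 of 200 genes changed by 1.5 (log2) and 192 of 200 changed by 1 were recovered, with 9 and 7 false calls. The changed genes were drawn from the more abundant ones. Noise was normal with the same SD in every group of a gene, and nothing else was changed. The trial thus says nothing of low genes, or of genes such as PDGFB whose groups varied unequally. Gene positions are those of GENCODE lifted to GRCh37, and promoter windows those of RefSeq on GRCh38.p14, which listed none for PDGFB, PDGFC and VEGFA. The alternatives were pseudocounts of 1 and 0.01, no filter, a mean RPKM of at least 1, quantile normalization, equal sample medians, a replicate block and each sample left out in turn. The receptor-bound chromatin samples of the series were not used here.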

Additional observations from a re-analysis of the deposited data

Results flagged for a closer look

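With 2 samples a group, no sample could be tested as an outlier within its group. Of the 10 genes, 6 results stood out because the 4 h and 2 h samples of a compound differed, the difference being called in the limma fit over all genes. The effect of the compound, time in culture and library cannot be told apart in them. No p is given for them, since the genes were chosen with these samples known. With CpdA, 4 h minus 2 h was −2.032 ± 0.428 (log2, SE) for PDGFB, −1.545 ± 0.281 for EDN1, −0.998 ± 0.155 for PGF, −0.464 ± 0.123 for VEGFA and −0.193 ± 0.051 for PDGFC. With Dex it was −0.725 ± 0.085 for VEGFC. Between the vehicle samples, replicate 2 minus replicate 1, the same genes differed by −1.722 (PDGFB), −1.146 (EDN1), −0.486 (PGF), −0.41 (VEGFA), 0.064 (PDGFC) and 0.29 (VEGFC). Whether the differences between the vehicle samples and those between the CpdA times have 1 source was not tested. Leaving out either sample at either time of CpdA ended the calls of PDGFB, EDN1, VEGFA and PDGFC, each of which except EDN1 lost its call under other alternatives too, and PGF lost its call without CpdA 2 h replicate 1 or CpdA 4 h replicate 2. The VEGFC call held in all 17 alternative fits.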

How the results depend on the processing

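Of 54 differences of the 9 genes (from vehicle and between compounds), 30 were called, 21 of them under all 17 alternatives, 9 were lost somewhere, 16 uncalled ones gained a call somewhere (all 16 when 1 vehicle sample was left out), and 0 called values changed sign. With CpdA at 4 h, 2 members were called with no filter and 3 with equal sample medians, against 5, and 8 pathway genes with no filter, against 14. Over all genes, replicate numbers paired the samples weakly at most: the correlation of same-numbered deviations averaged 0.054 over 10 pairs of groups (−0.057 to 0.198). That average does not exclude pairing in some genes. PGK1, LDHA, ALDOA, BNIP3 and PLAU read higher in replicate 1 in every group, as did summed RPKM, whereas EPAS1 did not. The replicate block called more of all genes in each comparison with vehicle and between compounds. Whether same-numbered samples share a source was not tested. With the replicate block, 1 member (PGF, against 0) and 7 pathway genes (against 4) were called at 2 h of CpdA. Leaving out 1 sample at a time gave 766 to 1705 genes called of all at 2 h of Dex (main 1311), 2767 to 4754 at 4 h (3487), 216 to 1450 at 2 h of CpdA (786), 1188 to 3638 at 4 h (2609), and 958 to 2295 and 2762 to 5153 for Dex against CpdA (1743 and 4241). For members it gave 4 to 7, 6 to 9, 0 to 5 and 2 to 7 against vehicle, and 4 to 6 and 5 to 7 between compounds. At 2 h of CpdA, where the main fit called 0 members, some were called without either vehicle sample or either Dex 4 h sample. At 4 h of CpdA fewer members were called without either CpdA 4 h sample or any 1 of the 2 h samples of Dex or CpdA. For pathway genes it gave 5 to 12, 17 to 19, 1 to 10 and 4 to 16. The counts over all genes moved by over 1.5 times without either Dex 2 h sample (2 h of Dex), any sample but those of Dex 2 h (2 h of CpdA), either CpdA 4 h sample (4 h of CpdA), any of the 4 samples compared (Dex against CpdA at 2 h) and CpdA 4 h replicate 2 (at 4 h). Those of pathway genes did so without Dex 2 h replicate 2 (5 at 2 h of Dex), without vehicle replicate 1 or either CpdA 2 h sample (10, 1 and 2 at 2 h of CpdA) and without vehicle replicate 1, either CpdA 2 h or either CpdA 4 h sample (9, 9, 9, 5 and 4 at 4 h of CpdA). A sample left out leaves a lone duplicate that is assumed to vary like the other groups. The cause was not tested in any of these. Depth is known only in relative terms, which limits low genes such as PDGFD and EDNRA.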
